A study of Canis lupus familiaris with 29 samples.

Results

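ATF3, NR4A1, NR4A2 and EGR3 are transcription factors of the immediate early response, and the results concern their RNA levels in lymph nodes of dogs with large B-cell lymphoma. The members were ATF3 and NR4A1 plus every row that the study's list of genes for the valspodar group names as 1 of 13 other immediate early genes, of which EGR3 and NR4A2 were on the list. This gave 4 members of 24580 genes in all, and each of the 4 had a mean of at least 1 FPKM (sequenced fragments per unit of exon length and of library size) and was among the 11677 genes tested. The list was drawn from Day 4 against Day 0 in the valspodar group, so the members' values in that contrast, and in any contrast that holds it, are given as a description with no test. The placebo libraries and the outcome of the dogs were not used to choose them.

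Lymph node biopsies came from 15 pet dogs with newly diagnosed, untreated large B-cell lymphoma and gave 29 libraries. Day 0 was before treatment, and Day 4 was on the day of the second biopsy, after oral capsules every 12 hours and before the first doxorubicin. The placebo group (6 dogs, 5.3 to 10.4 years old where an age was given, in 5 of 6) had 6 libraries at Day 0 and 5 at Day 4, since PD04 had Day 0 alone. The valspodar group (9 dogs, 3.8 to 11.6 years old) was given 7.5 mg/kg of valspodar, which blocks the drug efflux pump ABCB1, and had 9 libraries on each day. The dogs were of several breeds, and herding breeds were excluded from the trial. Day 0 tissue was an incisional wedge and Day 4 tissue a tru-cut needle core, in both groups, so the kind of biopsy and the day cannot be told apart. A biopsy holds tumour cells together with other cells of the node, and in such bulk RNA fewer cells of a type and less RNA per cell cannot be told apart. None of the B-cell markers (0 of 7) could be matched to a row by symbol here, so the labelled tissue was not checked against them.

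Immediate early genes are transcribed within minutes of a stimulus, without new protein synthesis, and their transcripts are short-lived. ATF3 is a bZIP factor induced by many kinds of cell stress. NR4A1 (Nur77) and NR4A2 (Nurr1) are orphan nuclear receptors, and EGR3 is a zinc finger factor of the early growth response family. In lymphocytes NR4A1, NR4A2 and EGR3 are known as genes that respond to antigen receptor signalling. The rows are ENSCAFG00000012339 for ATF3, ENSCAFG00000007338 for NR4A1, ENSCAFG00000009209 for NR4A2 and ENSCAFG00000009272 for EGR3.

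Relative depth, estimated from genes with low values, ranged from 0.288 to 1.84 times the median library, and the lowest was MN02 at Day 4, below 0.849 for the next. Only a median of 20.9% of the shared low genes lay at the repeated ratio on which that estimate rests, so it is approximate. Of the 28 libraries of dogs with both days, 25 had the other day of that dog as the closest library by rank correlation across the tested genes.

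All 4 genes were low in most libraries and high in a few, and the few were mostly the same for each gene. ATF3 ranged from 0.176 to 72.9 FPKM with a median of 1.32 over the 29 libraries. NR4A1 ranged from 0.574 to 316.4 FPKM with a median of 2.26. NR4A2 had the highest median, 4.99 FPKM, with a range of 2.17 to 124.4. EGR3 ranged from 0.63 to 99.98 FPKM with a median of 2.53. The members' medians per length therefore lay within a few FPKM of each other, while the highest library of each stood 24.9 (NR4A2) to 140.1 (NR4A1) times above its median. In 21 of the 29 libraries none of the 4 genes reached 4 times its own median, and in 4 libraries all 4 genes did.

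**Figure D1:**
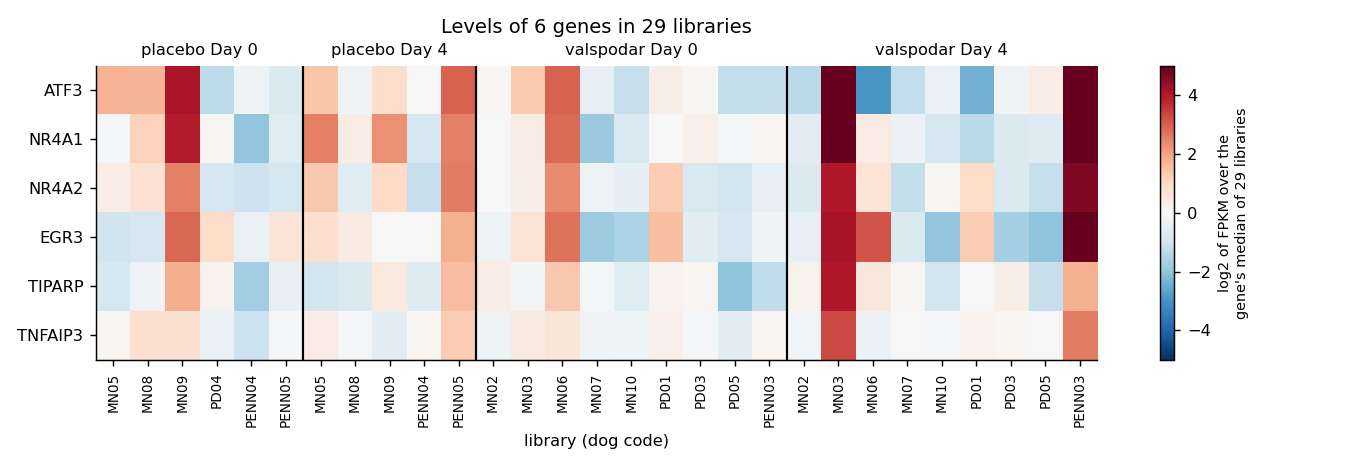
Levels of the 4 members and of TIPARP and TNFAIP3 in 29 libraries, drawn as the log2 of FPKM over the gene's median of all libraries (colour), with 1 column per library, named by the dog and grouped by treatment and day. All 4 members reached 4 times their median in MN09 and MN06 at Day 0 and in MN03 and PENN03 at Day 4, and 3 of them did in PENN05 at Day 4.

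The 2 highest libraries were those of MN03 and PENN03 at Day 4, both from the valspodar group. In MN03 at Day 4 the levels were 72.9 FPKM for ATF3, 109.3 for NR4A1, 79.5 for NR4A2 and 44.1 for EGR3. In PENN03 at Day 4 they were 48 FPKM for ATF3, 316.4 for NR4A1, 124.4 for NR4A2 and 99.98 for EGR3. The order of the genes differed between the libraries, with ATF3 higher in MN03 and the other 3 genes higher in PENN03. These libraries held 60.7% of the summed FPKM of ATF3 over all 29 libraries, 76.4% of that of NR4A1, 49.5% of that of NR4A2 and 53.7% of that of EGR3. Neither dog stood apart at Day 0, where ATF3 was 3.32 FPKM in MN03 and 0.574 in PENN03, and NR4A1 was 2.89 and 2.40.

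High levels also occurred in libraries from before treatment and in the placebo group. MN09, a placebo dog, had 22.3 FPKM of ATF3, 34.5 of NR4A1, 28.4 of NR4A2 and 18.5 of EGR3 at Day 0. MN06, a valspodar dog, had 10.2 FPKM of ATF3, 16.3 of NR4A1, 25.9 of NR4A2 and 16.5 of EGR3 at Day 0. PENN05, a placebo dog, had 10.2 FPKM of ATF3, 13.1 of NR4A1, 29.2 of NR4A2 and 8.56 of EGR3 at Day 4. In these 3 libraries the levels of ATF3 were 7.68 to 16.9 times its median, against 36.3 and 55.2 times in PENN03 and MN03 at Day 4. NR4A1 alone passed 4 times its median in MN05 and MN09 at Day 4, at 12.8 and 11.1 FPKM, and EGR3 alone did in MN06 at Day 4, at 22.3 FPKM.

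Among the 4 groups, the levels overlapped for every member. ATF3 was at 5.59 ± 8.37 FPKM (mean ± SD, n = 6) in the placebo group at Day 0 and 3.71 ± 3.74 (n = 5) at Day 4. In the valspodar group it was at 2.29 ± 3.07 FPKM (n = 9) at Day 0 and 14.04 ± 27.05 (n = 9) at Day 4. By the median, which 1 or 2 libraries move less, the order for ATF3 was placebo Day 0 (2.71 FPKM), placebo Day 4 (2.45), valspodar Day 0 (1.37) and valspodar Day 4 (1.08), so the group with the highest mean had the lowest median. NR4A1 had its highest median in the placebo group at Day 4, 11.1 FPKM, above valspodar Day 0 at 2.26, placebo Day 0 at 2.25 and valspodar Day 4 at 1.56. NR4A2 followed the order of placebo Day 4 (10.1 FPKM), valspodar Day 4 (5.20), placebo Day 0 (4.59) and valspodar Day 0 (4.23). EGR3 medians were 3.43 FPKM for placebo Day 4, 2.95 for placebo Day 0, 2.14 for valspodar Day 0 and 1.93 for valspodar Day 4. The ranges within groups each hold a high library and were wider than the gaps between neighbouring medians. A comparison with those ranges therefore could not tell the groups apart, and the orders are a description.

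**Figure D2:**
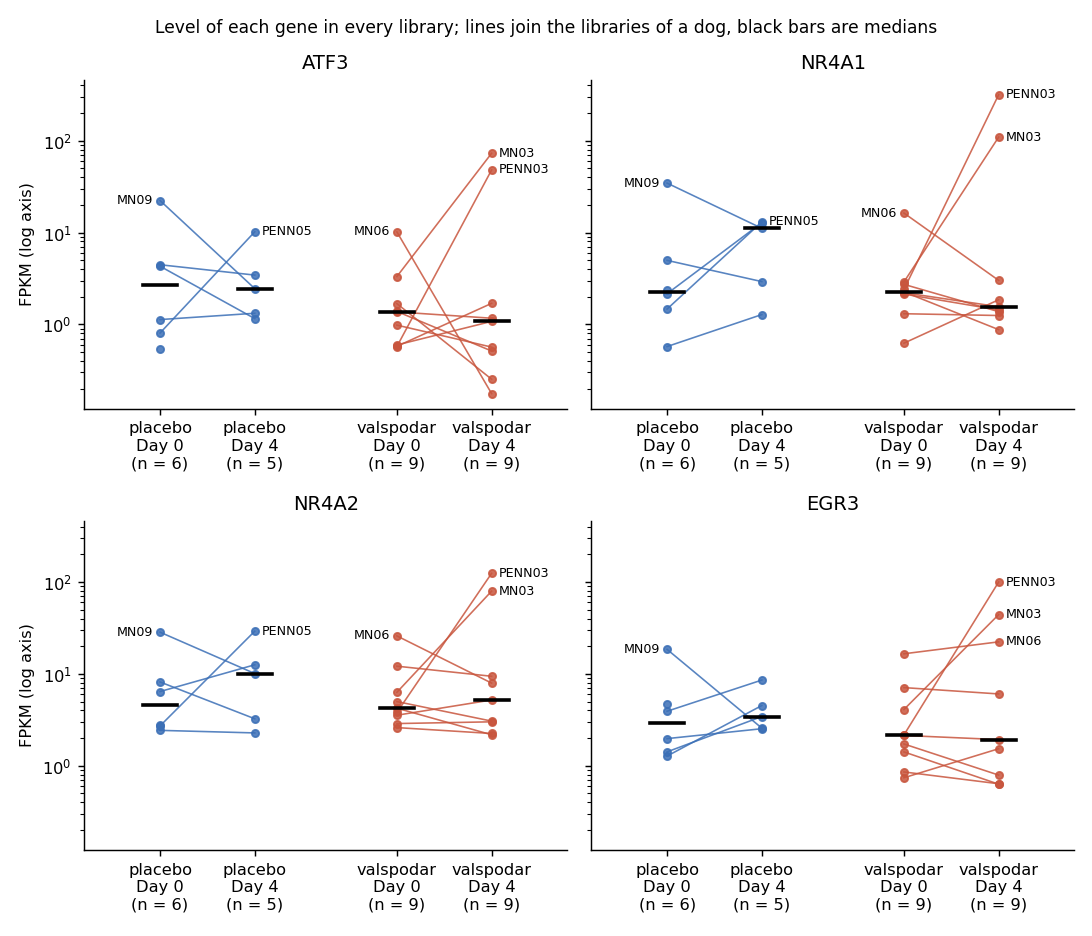
FPKM (log axis) of ATF3, NR4A1, NR4A2 and EGR3 in every library by group and day, with lines joining the 2 libraries of a dog and black bars at the group medians. The libraries of MN03 and PENN03 at Day 4 lie highest for all 4 genes, at 44.1 to 316.4 FPKM, while the medians of the valspodar group at Day 4 lie between 1.08 and 5.20 FPKM.

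The placebo group shows how far these genes differed between biopsies without the drug. At Day 0 ATF3 ran from 0.540 FPKM in PD04 to 22.3 in MN09, with a median of 2.71. At Day 4 it was 3.44 FPKM in MN05, 1.16 in MN08, 2.45 in MN09, 1.32 in PENN04 and 10.2 in PENN05. ATF3 was thus higher at Day 4 in 2 of 5 dogs, and the days overlapped. Changes are on the log2(FPKM + 1) scale, where 1 FPKM is added before taking logs so that changes of low genes are understated. Mean changes here and below are the Day 4 mean minus the Day 0 mean, not paired by dog and with PD04 at Day 0. For ATF3 the mean change was -0.04 (SE 0.71). It did not pass limma's test (adjusted p = 1).

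NR4A1 at Day 0 ran from 0.574 FPKM in PENN04 to 34.5 in MN09, with a median of 2.25. At Day 4 it was 12.8 FPKM in MN05, 2.92 in MN08, 11.1 in MN09, 1.28 in PENN04 and 13.1 in PENN05. It was higher at Day 4 in 3 of 5 dogs, the largest differences being in MN05 and PENN05, and the days overlapped. The mean change of 0.69 (SE 0.80) on the log2 scale did not pass limma's test (adjusted p = 1), with a 95% interval from -1.08 to 2.46. Of all tested genes, 1.94% had a larger mean difference than NR4A1 in this group, against 5.25% for NR4A2, 27.7% for EGR3 and 60.5% for ATF3.

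NR4A2 at Day 0 ran from 2.43 FPKM in PENN04 to 28.4 in MN09, with a median of 4.59. At Day 4 it was 12.6 FPKM in MN05, 3.25 in MN08, 10.1 in MN09, 2.28 in PENN04 and 29.2 in PENN05. It was higher at Day 4 in 2 of 5 dogs, with a mean change of 0.43 (SE 0.70) on the log2 scale. EGR3 at Day 0 ran from 1.27 FPKM in MN05 to 18.5 in MN09, with a median of 2.95. At Day 4 it was 4.52 FPKM in MN05, 3.43 in MN08, 2.57 in MN09, 2.53 in PENN04 and 8.56 in PENN05. EGR3 was higher at Day 4 in 4 of 5 dogs, all but MN09, and its mean change was 0.12 (SE 0.53) on the log2 scale. Neither NR4A2 nor EGR3 passed limma's test (adjusted p = 1), and the days overlapped for both.

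Across all genes tested in the placebo group, 0% passed an adjusted p under 0.05 and 3.68% (430 of 11677) had an unadjusted p under 0.05. None of the 4 members was among the 430. With the dog as a replicate block, which leaves out PD04, the number at an unadjusted p under 0.05 was 805, with none past the adjusted threshold, and the changes were -0.32 (SE 0.75) for ATF3, 0.60 (SE 0.66) for NR4A1, 0.26 (SE 0.68) for NR4A2 and 0.18 (SE 0.57) for EGR3. An exact sign-flip test over the 5 dogs, which cannot give a two-sided p below 0.0625, gave p = 0.688 for ATF3, 0.5 for NR4A1, 0.875 for NR4A2 and 0.875 for EGR3.

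The small means in the placebo group held large differences of opposite direction in single dogs. In MN09 all 4 genes were lower at Day 4, with log2 differences of -2.76 for ATF3, -1.55 for NR4A1, -1.41 for NR4A2 and -2.45 for EGR3. Among the 11677 tested genes, ATF3 had the 16th lowest difference in MN09 and EGR3 the 23rd lowest. In PENN05 all 4 genes were higher at Day 4, by 2.63 for ATF3, 2.51 for NR4A1, 3.02 for NR4A2 and 0.96 for EGR3. NR4A2, ATF3 and NR4A1 ranked 35, 40 and 43 from the highest in PENN05 and were 3 of the 58 tested genes (0.497%) that were at least 4-fold higher at Day 4 on that scale. Dog codes begin with MN, PENN or PD, and ATF3 was lower at Day 4 in the 3 placebo dogs with MN codes (mean -1.45) and higher in both with PENN codes (mean 1.38). The other members did not split this way, since EGR3 was higher in 2 of the 3 MN dogs and both PENN dogs, NR4A1 in 1 of 3 and both, and NR4A2 in 1 of 3 and 1 of 2. Over both groups and days, a member reached 4 times its median in 6 of 16 libraries with MN codes, 2 of 6 with PENN codes and 0 of 7 with PD codes. The difference between codes was not tested, and what the codes stand for was not used here.

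In the valspodar group all 4 genes were far higher at Day 4 in 2 of the 9 dogs. ATF3 at Day 0 ran from 0.574 to 10.2 FPKM with a median of 1.37, and at Day 4 from 0.176 to 72.9 with a median of 1.08. NR4A1 at Day 0 ran from 0.624 to 16.3 FPKM with a median of 2.26, and at Day 4 from 0.877 to 316.4 with a median of 1.56. NR4A2 ran from 2.60 to 25.9 FPKM with a median of 4.23 at Day 0, and from 2.17 to 124.4 with a median of 5.20 at Day 4. EGR3 ran from 0.740 to 16.5 FPKM with a median of 2.14 at Day 0, and from 0.63 to 99.98 with a median of 1.93 at Day 4. The 2 days overlapped for each gene, and NR4A1 was higher at Day 4 in 3 of 9 dogs and each of the other members in 4 of 9.

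MN03 and PENN03 were the only valspodar dogs in which all 4 genes were higher at Day 4. In MN03 the differences on the log2 scale were 4.10 for ATF3, 4.82 for NR4A1, 3.46 for NR4A2 and 3.15 for EGR3. In PENN03 they were 4.96 for ATF3, 6.55 for NR4A1, 4.71 for NR4A2 and 4.997 for EGR3. The 4 members ranked between 20 and 41 among 11677 genes in MN03 and between 8 and 21 in PENN03. At least 4-fold higher levels at Day 4 were found for 116 genes in MN03 (0.993%) and 117 in PENN03, and the members were among them in both. All 4 genes were lower at Day 4 in MN02 and PD01, and 3 of the 4 in MN06, PD03 and PD05.

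MN06 was the valspodar dog that was high before treatment, and its genes did not move together. ATF3 was 10.2 FPKM at Day 0 and 0.176 at Day 4, the lowest ATF3 level of all 29 libraries and a log2 difference of -3.25. NR4A1 was 16.3 FPKM at Day 0 and 3.01 at Day 4, and NR4A2 was 25.9 and 7.93. EGR3 was 16.5 FPKM at Day 0 and 22.3 at Day 4, below only those of PENN03 and MN03 at Day 4 among all libraries. The ratio of EGR3 to ATF3 was therefore highest in that library, at 126.5, against a median of 1.55 over all libraries.

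With all 9 valspodar dogs, the mean changes on the log2 scale were 0.53 (SE 0.78) for ATF3, 0.88 (SE 0.92) for NR4A1, 0.59 (SE 0.69) for NR4A2 and 0.83 (SE 0.79) for EGR3. Without PENN03 alone they were -0.03 for ATF3, 0.17 for NR4A1, 0.07 for NR4A2 and 0.31 for EGR3, so 1 dog turned the sign for ATF3. Without MN03 alone they were 0.08, 0.38, 0.23 and 0.54. Without PENN03 and MN03 together, a choice made after seeing the data, they were -0.62 (SE 0.38), -0.50 (SE 0.40), -0.41 (SE 0.45) and -0.10 (SE 0.66). The sign then turned for each member. The changes beyond those of the placebo group (valspodar minus placebo) were 0.57 (SE 1.17) for ATF3, 0.19 (SE 1.36) for NR4A1, 0.16 (SE 1.06) for NR4A2 and 0.71 (SE 1.12) for EGR3, and each was smaller than its SE. With each of the 15 dogs left out in turn they ran from 0.02 to 1.18 for ATF3, -0.52 to 0.60 for NR4A1, -0.36 to 0.76 for NR4A2 and 0.17 to 0.95 for EGR3. The sign turned for NR4A1 and NR4A2 without MN03, MN08, MN09 or PENN03, for NR4A2 without PENN04 (-0.01), and for NR4A1 with a pseudocount of 0.1 (-0.04). Without PENN03 and MN03 these differences were -0.57 (SE 0.78), -1.19 (SE 0.86), -0.84 (SE 0.82) and -0.22 (SE 0.91). Of all genes, 0% passed an adjusted p under 0.05 in the valspodar change and 0% in the difference of the changes. Since this contrast chose the members, these values are given for their size alone.

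**Figure D3:**
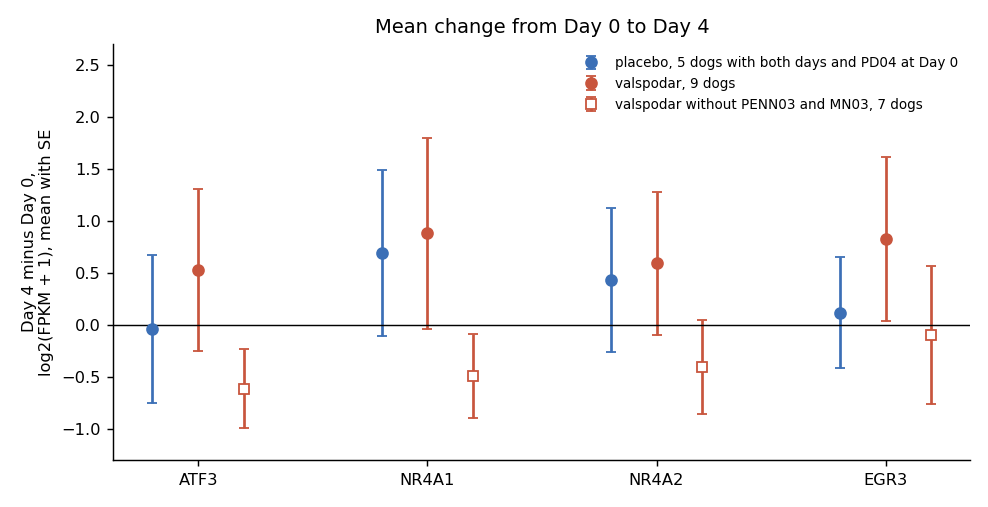
Mean difference between Day 4 and Day 0 on the log2(FPKM + 1) scale (points, with bars of 1 SE from the limma fit) for the 4 members in the placebo group, the valspodar group and the valspodar group without PENN03 and MN03. The fit did not pair libraries by dog, and PD04 is in the placebo group at Day 0 alone. The valspodar means of 0.53 to 0.88 become -0.62 to -0.10 without these dogs, while the placebo means lie between -0.04 and 0.69.

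Values that could bear on the high libraries were collected beside them. Relative depth was 0.949 in MN03 and 1.04 in PENN03 at Day 4, 0.873 in MN09 and 0.953 in MN06 at Day 0, and 1.04 in PENN05 at Day 4, all near that of the median library. MN03 and PENN03 at Day 4 each had the own dog's Day 0 library as the closest (rank correlation of 0.945 and 0.950 across the tested genes), while MN03 at Day 0 was slightly closer to MN08 at Day 4 (0.948). Of the macrophage markers, 2 of 9 could be matched (C1QB and C1QC, both from the same list as the members), and their summed level was 263.2 FPKM at Day 0 and 372 at Day 4 in MN03, and 51.6 and 199 in PENN03. It was 14.8 FPKM at Day 0 and 35.3 at Day 4 in MN09, opposite to the members there, and 169 and 143 in PENN05, again opposite, but 33.5 and 17.0 in MN06, where ATF3 was lower at Day 4 too. Across the groups the sum ran from 14.4 to 169 FPKM in placebo Day 0, 35.3 to 143 in placebo Day 4, 33.5 to 263.2 in valspodar Day 0 and 17 to 593 in valspodar Day 4, with the highest value in PD05, where ATF3 was 1.69 FPKM and NR4A1 1.43. Of the neutrophil markers, 3 of 7 could be matched (CSF3R, ITGAM and MMP9), and their sum was 20.4 FPKM in MN03 and 1.09 in PENN03 at Day 4, within a range of 0.379 to 198 over all libraries. Both marker sets have defining genes that were not matched, and their part in the members' levels was not tested.

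Other immediate early genes could be followed for 2 of the 40 symbols listed, TIPARP and TNFAIP3, and none of the 16 stress response genes or the 9 heat shock genes listed had a matched row. TIPARP, a mono-ADP-ribosyltransferase, had a median of 10.6 FPKM, and TNFAIP3 (A20), an inhibitor of NF-kB signalling, a median of 10.6 FPKM. Both come from the same list of the valspodar group as the members, so their levels there are a description as well. TIPARP was 172 FPKM in MN03 and 36.3 in PENN03 at Day 4, and 37.4 in MN09 at Day 0. TNFAIP3 was 105.1 FPKM in MN03 and 63.1 in PENN03 at Day 4, its 2 highest libraries, and 18.1 in MN09 at Day 0. Relative to their medians, TIPARP and TNFAIP3 stood 3.52 and 1.71 times higher in MN09 at Day 0, against 5.69 to 16.9 times for the 4 members. In the placebo group neither passed limma's test (0 of 2, adjusted p = 1), with changes of 0.12 (SE 0.58) for TIPARP and 0.17 (SE 0.36) for TNFAIP3.

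Of the 12 other genes with a symbol on that list, 3 had their 2 highest libraries in MN03 and PENN03 at Day 4, which are CXCR4, ICAM1 and TNFAIP3. This pair of libraries was also the highest for 2.69% of all tested genes (314 of 11677). The list was drawn from a contrast that holds these 2 libraries, so its genes tend to be high in them by choice. The 2 shares are therefore a description and no test. CXCR4, the receptor of the chemokine CXCL12, was 651 FPKM in MN03 and 317 in PENN03 at Day 4 against a median of 41.0. ICAM1, an adhesion molecule of leukocytes and endothelium, was 48.3 and 36.9 FPKM against a median of 14.1. CXCL8, the neutrophil chemokine, was 94.9 FPKM in MN03 and 6.97 in PENN03, so that it was high in 1 of the 2 libraries.

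The levels of ATF3 and NR4A1 varied together over the libraries. On the log2(FPKM + 1) scale, Pearson's r was 0.92 and Spearman's rho 0.63 over 29 libraries, in which 14 dogs give 2 libraries each, so r is a description with no p. Over the 15 Day 0 libraries, 1 per dog, r was 0.88 and rho 0.55. Without MN03 and PENN03 at Day 4, r over the other 27 libraries was 0.83, and over the 11 placebo libraries it was 0.82. Spearman's rho, which uses the order alone and gives the high libraries no extra weight, was lower than r over the 29 libraries and over the Day 0 libraries. Across all 6 pairs of members, r ran from 0.72 (ATF3 and EGR3) to 0.92 (NR4A1 and NR4A2), and rho from 0.30 (ATF3 and EGR3) to 0.69 (NR4A1 and NR4A2). Without the 2 highest libraries, the range of r was 0.43 to 0.83. Such likeness was not particular to the 4 members, since TNFAIP3 had r = 0.88 with ATF3 and 0.85 with NR4A1, above that of ATF3 with EGR3, and TIPARP had 0.77 and 0.76. Without the 2 highest libraries TNFAIP3 had r = 0.71 with ATF3 and 0.61 with NR4A1, and TIPARP 0.56 and 0.63.

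**Figure D4:**
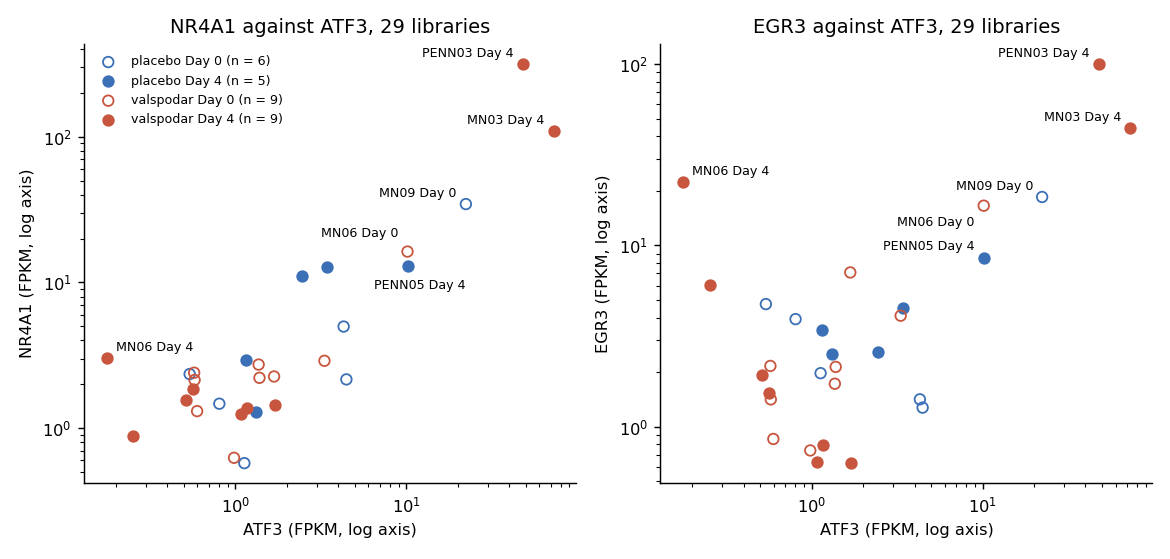
NR4A1 (left) and EGR3 (right) against ATF3 in 29 libraries, in FPKM on log axes, with open points for Day 0, filled points for Day 4, blue for placebo and red for valspodar. The libraries with high ATF3 were high in NR4A1 too, whereas MN06 at Day 4 had 0.176 FPKM of ATF3 beside 22.3 of EGR3.

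The 6 placebo Day 0 libraries, 1 per dog, had no part in the choice of members, but were looked at after MN09 among them had been seen to be high in all 4 genes, so their values are a description too. Over these dogs r was 0.95 (rho 0.94) for NR4A1 and NR4A2, 0.99 (rho 0.71) for ATF3 and NR4A2 and 0.90 (rho 0.49) for ATF3 and NR4A1. The 3 pairs with EGR3 had r of 0.52 to 0.77 and rho of -0.14 to 0.37. Without the 2 dogs farthest from the median of the first gene, r over 4 dogs was 0.76 for NR4A1 and NR4A2, 0.96 for ATF3 and NR4A2 and 0.77 for ATF3 and NR4A1, but -0.87 to -0.55 for the pairs with EGR3, whose relations thus rest on those dogs, MN09 among them.

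The ratio between members differed widely among libraries. NR4A1 over ATF3 ran from 0.484 in MN05 at Day 0 to 17.1 in MN06 at Day 4, with a median of 1.60. The highest value divides by 0.176 FPKM of ATF3, a level under 1 FPKM, where the counting error is not known. NR4A1 over NR4A2 ran from 0.0931 in PD01 at Day 4 to 2.54 in PENN03 at Day 4, with a median of 0.562. These receptors are paralogs, and fragments that fit more than 1 locus were shared out by the authors' quantification, whose effect on this ratio was not tested.

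The genes most like each member over the 29 libraries included other members. These libraries hold the values that chose the members, MN03 and PENN03 at Day 4 above all, so the ranks are a description. For ATF3, NR4A1 ranked 1 of 11676 genes by r and NR4A2 ranked 3 (r = 0.89). For NR4A1, NR4A2 ranked 1 and ATF3 ranked 2. For NR4A2, NR4A1 ranked 3, behind ENSCAFG00000002490 (r = 0.95, rho 0.88) and ENSCAFG00000001379 (r = 0.94, rho 0.81). For EGR3, NR4A2 ranked 1 (r = 0.86) and NR4A1 ranked 4, while ATF3 ranked 96. Without MN03 and PENN03 at Day 4, NR4A1 and NR4A2 ranked 1 and 2 for ATF3, and ATF3 and NR4A2 ranked 1 and 2 for NR4A1. EGR3 then ranked 244 for ATF3 and 27 for NR4A1. For NR4A2 the other members ranked from 22 to 62 and for EGR3 from 30 to 1093. Over the 11 placebo libraries, which had no part in the choice, NR4A2 ranked 5 for ATF3 and 2 for NR4A1, and NR4A1 ranked 66 for ATF3. The members ranked from 44 to 202 for EGR3, while EGR3 ranked 573 for ATF3, 196 for NR4A1 and 515 for NR4A2. ENSCAFG00000001379 was among the 5 most like genes of ATF3, NR4A1 and NR4A2, with a median of 14.1 FPKM and its highest level, 49.9, in PENN03 at Day 4. Without MN03 and PENN03 at Day 4 its r with these 3 members was 0.76 to 0.87. An r of at least 0.8 was reached by 0.24% of genes with ATF3, 0.154% with NR4A1, 0.403% with NR4A2 and 0.197% with EGR3, the libraries sharing dogs and depth throughout.

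Whether the level before treatment went with outcome was tested on the Day 0 libraries, since outcome had no part in choosing the members. Days of remission were stated for 13 dogs and days of overall survival for 14, and dogs with a censored or unreported value were left out. MN06 had neither value, and PD01 had no days of remission. Of the dogs with all 4 members at 4 times their median at Day 0, MN09 alone was therefore left in these relations. Survival had r = -0.06 with ATF3 (permutation p = 0.858), 0.21 with NR4A1 (permutation p = 0.539), -0.24 with NR4A2 (permutation p = 0.433) and 0.26 with EGR3 (permutation p = 0.387). Remission had r = -0.03 with ATF3, 0.15 with NR4A1, -0.11 with NR4A2 and 0.24 with EGR3 (permutation p from 0.458 to 0.935). None of the 8 relations passed, each with an adjusted p of 0.935.

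Leaving out the 2 dogs farthest from the median of the gene gave larger negative values for 2 of the members. The others did not follow, with r of 0.08 for NR4A1 and 0.36 for EGR3 with survival, and 0.27 and -0.04 with remission. Each adjusted p covers the 8 relations of 1 setting and not the several settings tried. For NR4A2, r was -0.72 with survival over 12 dogs (permutation p = 0.0108, adjusted p = 0.0862) and -0.59 with remission over 11 dogs (permutation p = 0.0565, adjusted p = 0.151). For ATF3, r was -0.60 with survival (permutation p = 0.0358, adjusted p = 0.143) and -0.30 with remission (permutation p = 0.376, adjusted p = 0.568). Spearman's rho with survival over all 14 dogs was -0.53 for NR4A2 (permutation p = 0.0546, adjusted p = 0.437) and -0.39 for ATF3 (permutation p = 0.163, adjusted p = 0.481). It was 0.05 for NR4A1 and 0.30 for EGR3. MN09, with 28.4 FPKM of NR4A2 at Day 0, is the dog at the far right of the plot of survival, and its survival was 493 days. Within the valspodar dogs r with survival was -0.64 for NR4A2 (exact permutation p = 0.0772, adjusted p = 0.309, n = 8) and -0.49 for ATF3 (exact permutation p = 0.22, adjusted p = 0.44, n = 8). There NR4A1 had r = 0.43 and EGR3 -0.22. Within the placebo dogs r with survival was -0.08 for NR4A2 and for ATF3 (exact permutation p = 0.85 and 0.856, n = 6). There NR4A1 had r = 0.08 and EGR3 0.61.

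**Figure D5:**
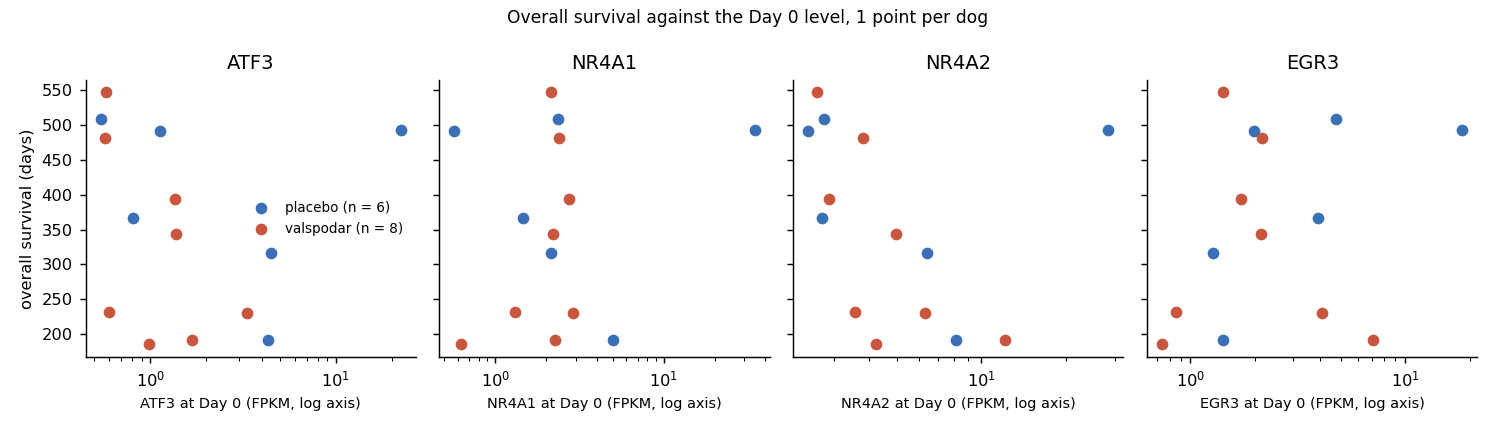
Overall survival in days against the Day 0 level of each member (FPKM, log axis), 1 point per dog, with 6 placebo dogs in blue and 8 valspodar dogs in red. None of the 4 relations passed (r of -0.24 to 0.26), and MN09 is the point farthest to the right in each panel.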

How the data were processed

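RNA of lymph node biopsies was sequenced by the authors as 50-bp read pairs on an Illumina HiSeq. Per the study's methods and the submitters' processing notes, trimming used Trimmomatic 0.33, mapping used HISAT2 2.0.2 against CanFam3, and Cuffquant (Cufflinks 2.2.1) quantified each library, sharing out multi-mapping fragments. The authors made the deposited FPKM values with the classic-fpkm option of Cuffnorm, without pooling samples. All values come from the series table, and the 29 tables of single samples were identical to it. In 6 of these files a second library is appended, also with identical values. The appended libraries are those of MN03, MN06 and PENN03 at both days, and of no other dog. FPKM hold no read counts, so depth is only relative and no counting interval is given.

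Groups and dogs came from the sample titles. Changes were fitted with limma 3.58.1 in R 4.3.3 (lmFit, eBayes with trend) on log2(FPKM + 1) for the genes whose mean reached 1 FPKM, with Benjamini-Hochberg adjustment over all of them and a threshold of 0.05. Fits were tested on simulated data. The dog was the replicate. Libraries of the same dog are paired by design, and the deviations of the 2 from their group means correlated with a median of 0.504 (0.199 to 0.678 over 14 pairs). The study's comparisons name no dog term, so the block is an alternative. Outcome relations used Pearson's r and Spearman's rho with 100000 resamples (exact under 10 dogs), two-sided.

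The members, the gene lists and the tests were chosen with earlier results of these data known. Genes named were the members, the 5 genes most like each by r (of genes without a symbol only 2 are named), and listed genes with a row. Symbols could be matched for the 23 genes that the study's lists name. Alternatives were another pseudocount, other filters and scalings, a dog block, a joint fit, robust eBayes and leaving out dogs. The fold changes and q-values of the study's lists were not used, and no sequences or coordinates of the members were used here.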

Additional observations from a re-analysis of the deposited data

Results flagged for a closer look

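Each member's 4 groups and 2 sets of changes, 24 sets in all, were searched for a library or dog standing apart from its own group on the log2(FPKM + 1) scale, by the gap to its nearest neighbour over the range of the group. Chance alone marks about 1 in 20 such sets, and 2 of the 24 were marked.

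NR4A1 in MN06 stood apart in the valspodar group at Day 0, before any drug, with a level of 4.11 on the log2 scale (16.3 FPKM) and a gap of 0.63 of the range of 9 libraries, against a critical value of 0.493. The valspodar libraries belong to the contrast that chose the members, so this value is a description and no test. The change of EGR3 in MN09 stood apart among the 5 placebo dogs, with a difference of -2.45 and a gap of 0.72 of the range, against a critical value of 0.71. The libraries of MN03 and PENN03 at Day 4 were not marked, since each is the nearest neighbour of the other and such a search looks at 1 library at a time.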

How the results depend on the processing

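The placebo comparison called 0 genes, and 1 without the filter on low values (ENSCAFG00000029517, mean 0.0418 FPKM) and 1 without PENN05 (ENSCAFG00000027913), so leaving out 1 dog gave 0 to 1; both were named after their values were seen. The valspodar change and the difference of the changes called 0 genes under every alternative run, dog as a replicate block included, at 1314 and 428 genes with an unadjusted p under 0.05 under that block against 157 and 81 without it. The block changed no call in any of these comparisons.

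No member passed in the placebo group under any alternative run. The ATF3 change there was 0.088 with a pseudocount of 0.1 and ran from -0.66 to 0.51 with each dog left out, that of NR4A2 from -0.17 to 0.79, that of EGR3 from -0.13 to 0.65 and that of NR4A1 from 0.28 to 1.10, so the sign depended on 1 dog for each member but NR4A1.

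For ATF3 and NR4A1, r was 0.87 with a pseudocount of 0.1, 0.88 in the 15 Day 0 libraries, 0.82 in the 11 placebo libraries and 0.83 without the 2 libraries farthest from the median of ATF3, which are those of MN03 and PENN03 at Day 4; rho was 0.63. Leaving out 1 dog gave 0.90 to 0.93. No outcome relation passed under any alternative run. Signs turned for remission with ATF3 (0.033) and NR4A2 (0.0059) in placebo dogs and with EGR3 (-0.042) without the 2 farthest dogs, and for survival with EGR3 in valspodar dogs (-0.22). The cause of these differences was not tested. Without read counts, levels under about 1 FPKM have no known counting error.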
